A study of Homo sapiens with 6 samples.

Results

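The genes described here are the collagens, taken as every gene symbol of the deposited count table made of COL, a type number, the letter A and a chain number. The rule found 44 genes among 59653 symbols. They were divided by type into 11 fibrillar genes (types I, II, III, V, XI, XXIV and XXVII), 6 basement membrane genes (type IV) and 27 other genes. All 44 symbols were also found in the GENCODE 29 annotation.

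The study measured mRNA by sequencing in PA1, a long-established human line from an ovarian teratocarcinoma with wildtype genotype, after reduction of the transcription factor SOX2. In both groups cells grown in 2D were transfected, and after 24 h they were transferred to dishes with a poly-HEMA coat, which keeps cells from attaching, where they grew in 3D for another 72 h. In all, 3 libraries (control replicates 1 to 3) came from cells given a negative control siRNA and 3 (SOX2 siRNA replicates 1 to 3) from cells given siRNA against SOX2. The design text names 2 SOX2 siRNAs and does not say whether they were used together, and the single line limits the comparison to PA1 cells. Nothing in the labels says that the replicates were separate cultures, so the p-values measure only the spread between these libraries, which may be technical.

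Collagens are extracellular matrix proteins in which 3 chains wind into a triple helix, either copies of the same chain or a set of different chains. Fibrillar collagens line up into the cable-like fibrils of skin, bone and cartilage, whereas type IV collagen forms the sheet-like network of basement membranes. The other collagens sit on fibril surfaces, form beaded filaments, anchor epithelia, or span the plasma membrane.

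SOX2, the targeted gene, measured 245, 265 and 256 CPM (counts per gene scaled for library size, a level not corrected for gene length) in control and 51.8, 54.9 and 50.6 CPM after SOX2 siRNA. Its log2 fold change was -2.28 (SE 0.04, adjusted p = 5.97e-16, edgeR), and its expression was 20.5% of the control level. Library totals ranged from 25152313 to 32753184 counts, so that 3 counts, the limit that a count of 0 allows, corresponded to 0.0916 to 0.119 CPM, which covers counting error only, as PCR copies are not independent molecules. Across all 17592 tested genes, 4964 (28.2%) passed an adjusted p of 0.05, with 2599 (14.8%) higher and 2365 (13.4%) lower after SOX2 siRNA. A change of at least 2-fold that also passed was seen in 557 genes (3.17%), and the 3 libraries of one group did not overlap those of the other in 7352 genes (41.8%). Of the markers of undifferentiated cells other than SOX2, POU5F1 measured 301 ± 18.6 (SD, n = 3) CPM in control and 339 ± 12.96 CPM after SOX2 siRNA, whereas TDGF1 had at most 3 counts in any library. The summed level of the 7 markers was 2773 to 2835 CPM in control and 2768 to 2833 CPM after SOX2 siRNA, but single markers moved in opposite directions. PODXL fell from 1316 ± 15.04 to 671 ± 25.1 CPM, LIN28A rose from 706 ± 3.61 to 1148 ± 10.4 CPM, LIN28B, DNMT3B and POU5F1 also rose, and SALL4 did not pass.

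The 3 stretches of DNA below are shown because they lie at the start sites of collagen genes called in either direction. They are not those of the most changed genes as a group. COL2A1 and COL5A2 (log2 fold changes 1.48 and 1.35) had no entry among the start sites used, and COL21A1 (1.01) is not shown. COL4A2 had a smaller called fall (-0.35) and is shown as the neighbour of COL4A1. The first is the segment between the start sites of COL4A1 and COL4A2, which are read away from each other on chromosome 13 and were the most abundant basement membrane transcripts. The second lies upstream of COL13A1, the collagen gene with the highest log2 fold change, and the third upstream of COL12A1, which had the largest called fall outside type IV. All are from RefSeq on GRCh38.p14 and are written 5′ to 3′. The COL4A1 and COL4A2 segment is chr13:110307158-110307283 on the plus strand, 126 bases with 80.2% G and C, and capitals mark a CCAAT box and a GC box (GGGCGG).
COL4A1-COL4A2: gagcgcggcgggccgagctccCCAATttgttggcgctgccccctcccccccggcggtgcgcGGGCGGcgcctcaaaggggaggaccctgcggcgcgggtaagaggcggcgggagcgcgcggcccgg
The COL13A1 stretch is chr10:69801656-69801866 on the plus strand, 211 bases with 66.4% G and C. Capitals mark a match to the TATA box letters (TATAAA) at position 15 from its first base, near the end farthest from the gene. It is a match of letters only.
COL13A1: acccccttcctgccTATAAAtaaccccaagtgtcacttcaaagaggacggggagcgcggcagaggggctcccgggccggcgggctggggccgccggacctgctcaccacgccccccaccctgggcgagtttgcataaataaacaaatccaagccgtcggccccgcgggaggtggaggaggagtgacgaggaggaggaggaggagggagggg
The COL12A1 stretch is chr6:75206054-75206303 on the minus strand, 250 bases with 61.2% G and C, and capitals mark a GC box that reads GGGCGG on the opposite strand.
COL12A1: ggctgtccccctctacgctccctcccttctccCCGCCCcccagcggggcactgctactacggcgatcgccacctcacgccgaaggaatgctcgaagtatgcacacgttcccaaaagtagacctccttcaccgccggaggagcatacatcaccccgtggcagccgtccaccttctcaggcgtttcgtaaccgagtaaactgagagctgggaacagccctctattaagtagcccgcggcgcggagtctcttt

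Of the 44 collagen genes, 31 had enough counts to be tested. Among these, 15 rose and 4 fell after SOX2 siRNA, so that 19 of 31 (61.3%) were called, beside 28.2% of all tested genes. The share that rose was 48.4%, beside 14.8% of all tested genes, and the share that fell was 12.9%, beside 13.4%. The median log2 fold change over the tested collagen genes was 0.22, beside -0.00085 over all tested genes. All 19 called genes kept control and SOX2 siRNA values fully apart, as did 4 uncalled ones, together 23 of 31, beside 41.8% of all tested genes. At least a 2-fold change was seen in 5 collagen genes, beside 3.17% of all tested genes: COL2A1, COL5A2, COL13A1 and COL21A1 rose and COL4A1 fell. Tested genes had first to pass a minimum count, so these counts do not describe the 13 genes that did not. Small changes pass the test more easily in abundant genes, and abundance was not matched in these shares or those of the lists below. In bulk RNA, fewer cells of a type and less RNA per cell cannot be told apart, here and in all values that follow.

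**Figure D1:**
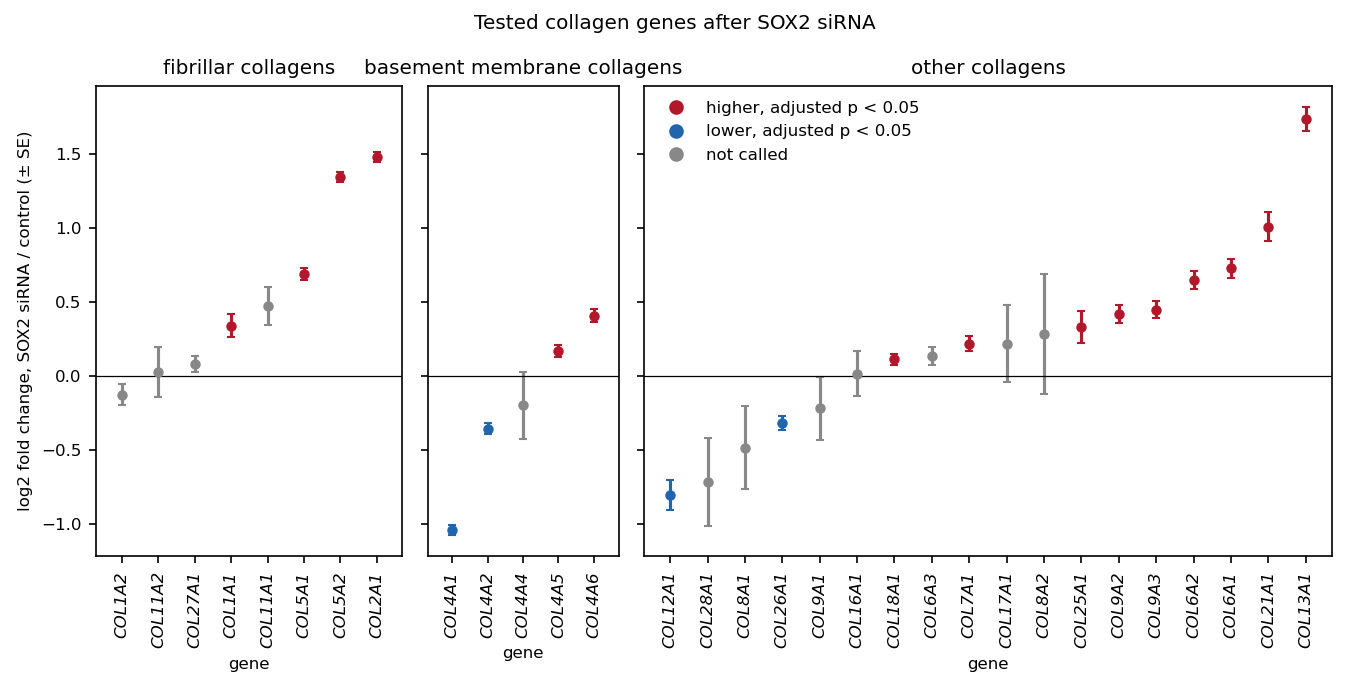
Log2 fold change (SOX2 siRNA over control) with its standard error for the 31 tested collagen genes, by class; red points rose, blue points fell and grey points did not pass an adjusted p of 0.05. The highest value is that of COL13A1 (1.74) and the lowest that of COL4A1 (-1.04), and no fibrillar gene is among the blue points.

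Of the 11 fibrillar collagen genes 8 were tested, 4 rose and none fell, beside 14.8% and 13.4% of all tested genes, with a median log2 fold change of 0.41. With 8 genes, a count of 0 lower is close to the share of all genes. Neither DESeq2 nor limma-voom called a lower one, and 0 fell by an unadjusted p of 0.05. The largest of these changes was that of COL2A1, the chain of type II collagen, the main fibrillar collagen of cartilage (chr12:47972965-48004554, minus strand, GENCODE 29 on GRCh38). It measured 199, 192 and 194 CPM in control and 548, 545 and 545 CPM after SOX2 siRNA. Every SOX2 siRNA library lay far above every control library, a 2.80-fold difference of the means (log2 fold change 1.48, SE 0.03, adjusted p = 2.26e-15, edgeR).

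COL5A2 encodes a chain of type V collagen, which joins type I collagen in mixed fibrils and limits their width. It measured 164, 161 and 167 CPM in control and 419, 414 and 422 CPM after SOX2 siRNA. The groups stood apart with little spread, and the means differed 2.55-fold (log2 fold change 1.35, SE 0.03, adjusted p = 8.62e-15, edgeR). COL5A1, which encodes the partner chain of the same protein, measured 176, 167 and 179 CPM in control and 294, 275 and 272 CPM after SOX2 siRNA. It rose by less than COL5A2, 1.61-fold (log2 fold change 0.69, SE 0.04, adjusted p = 5.69e-10, edgeR). The ratio of COL5A1 to COL5A2 counts went from 1.06 ± 0.0196 (SD, n = 3) to 0.671 ± 0.0282.

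COL1A1 and COL1A2 encode the chains of type I collagen, the main collagen of bone, tendon and skin. COL1A1 measured 291, 254 and 301 CPM in control and 388, 341 and 344 CPM after SOX2 siRNA. The lowest SOX2 siRNA library was above the highest control library, and both groups were spread widely for so abundant a gene. The log2 fold change was 0.34 (SE 0.08, adjusted p = 0.0189, edgeR). The call was lost without control replicate 1 (adjusted p = 0.0715) and without SOX2 siRNA replicate 3 (adjusted p = 0.0579). COL1A2 was much less abundant, with 16.7, 17.2 and 19.7 CPM in control and 16.9, 16.3 and 15.97 CPM after SOX2 siRNA. These values overlapped, and the log2 fold change of -0.12 (SE 0.07) did not pass the test (adjusted p = 0.225, edgeR).

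COL11A1 encodes a chain of type XI collagen, which is found within cartilage fibrils beside type II collagen. It measured 113, 119 and 127 CPM in control and 195, 161 and 144 CPM after SOX2 siRNA. The groups did not overlap, but the SOX2 siRNA libraries differed widely among themselves, and the log2 fold change of 0.48 (SE 0.13) did not pass the test (adjusted p = 0.0599, edgeR). It passed in 5 of 16 alternative fits, among them DESeq2 (adjusted p = 0.00395), limma-voom (adjusted p = 0.00287) and edgeR without SOX2 siRNA replicate 1 (adjusted p = 5.06e-04). COL11A2, its partner chain, was near 2 CPM in both groups (2.06 ± 0.0828 and 2.10 ± 0.116 CPM, n = 3 each). COL27A1, a fibrillar chain of developing cartilage, measured 52.7 ± 3.73 and 55.8 ± 2.71 CPM, with overlapping libraries (log2 fold change 0.08, adjusted p = 0.280, edgeR). COL3A1, a fibrillar collagen of vessels and skin, COL5A3 and COL24A1 were not tested. Each of these had at most 9 counts in any library.

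Markers of fibroblasts and stromal cells moved with the fibrillar genes. With the collagens left out, the 6 markers summed to 159 to 165 CPM in control and 260 to 270 CPM after SOX2 siRNA. PDGFRB, a growth factor receptor of mesenchymal cells, rose from 28.6 ± 0.999 to 106 ± 0.388 CPM, and PDGFRA and THY1 also rose. LUM measured 1.08 ± 0.307 and 1.55 ± 0.0957 CPM, without overlap but not past the test (adjusted p = 0.114, edgeR), and DCN and FAP, which define fibroblasts, had at most 4 counts and 1 count in any library. Of the chondrocyte markers SOX9, a transcription factor that drives COL2A1 in cartilage, rose from 99.7 ± 4.47 to 144 ± 5.08 CPM (log2 fold change 0.53, adjusted p = 3.60e-08, edgeR). ACAN and MATN1, which mark mature cartilage cells, had at most 7 and 8 counts. The 3 chondrocyte markers other than COL2A1 summed to 94.9 to 103 CPM in control and 139 to 148 CPM after SOX2 siRNA. Nearly all of that sum was SOX9. The part of these markers in the collagen values was not tested.

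**Figure D2:**
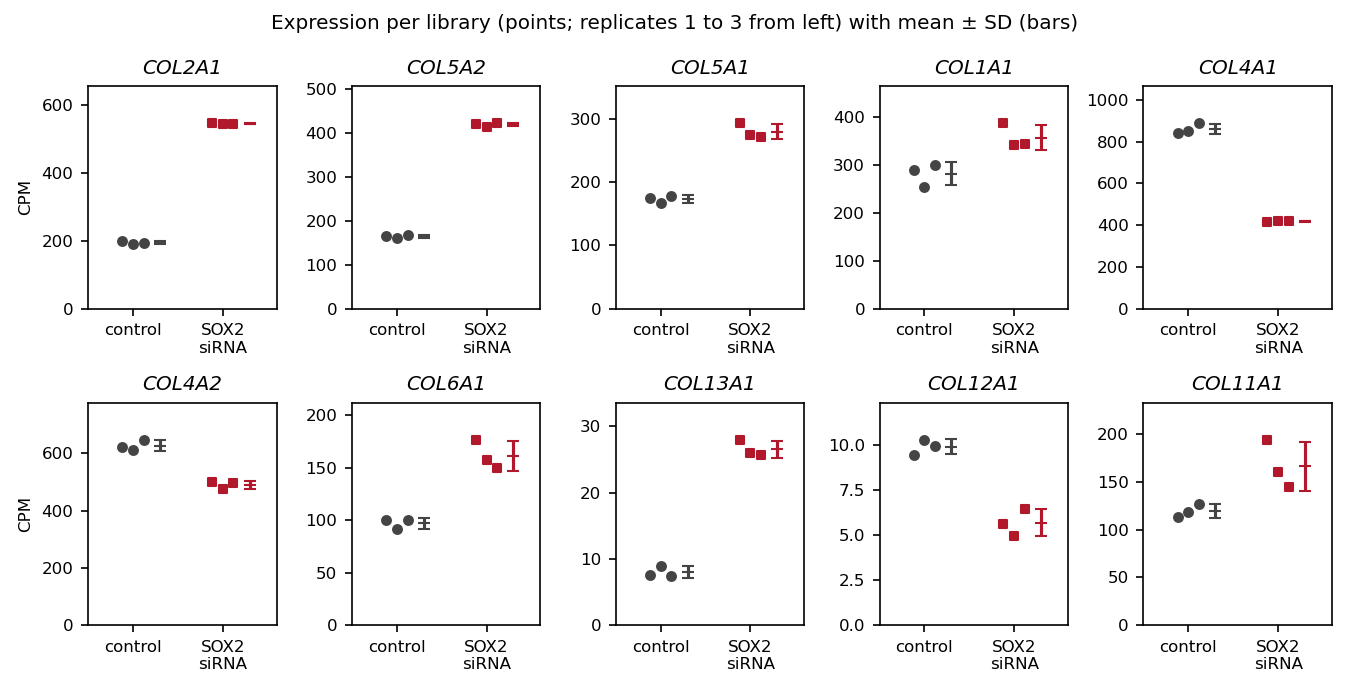
CPM in each library for 10 collagen genes, with control libraries as grey circles, SOX2 siRNA libraries as red squares, and bars for the mean ± SD of 3 libraries; each axis starts at 0. COL2A1 goes from 192 to 199 CPM in control to 545 to 548 CPM after SOX2 siRNA, while COL4A1 goes from 843 to 890 CPM to 417 to 420 CPM, and the COL11A1 points after SOX2 siRNA spread from 144 to 195 CPM.

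The basement membrane genes divided by chain. Of 6 genes 5 were tested: COL4A1 and COL4A2 fell, COL4A5 and COL4A6 rose, and COL4A4 did not pass (40% in each direction, beside 14.8% and 13.4% of all tested genes). The median log2 fold change was -0.20. COL4A1 and COL4A2 encode the chains of the network found in nearly all basement membranes. COL4A1 (chr13:110148963-110307233, minus strand) was the collagen gene with the highest CPM in control, at 843, 854 and 890 CPM, and measured 417, 420 and 420 CPM after SOX2 siRNA. Its level after SOX2 siRNA was 48.6% of control in libraries that barely differed from one another (log2 fold change -1.04, SE 0.03, adjusted p = 2.07e-13, edgeR). COL4A2 (chr13:110305812-110513209, plus strand) measured 623, 611 and 649 CPM in control and 502, 475 and 496 CPM after SOX2 siRNA. Its fall was smaller, to 78.3% of control, again without overlap (log2 fold change -0.35, SE 0.04, adjusted p = 7.13e-07, edgeR).

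The chains of type IV collagen join in set combinations, and those of COL4A1 and COL4A2 wind into the same helix. The ratio of COL4A1 to COL4A2 counts was 1.35, 1.40 and 1.37 in control and 0.831, 0.884 and 0.847 after SOX2 siRNA. COL4A1 thus exceeded COL4A2 in each control library and was below it in each SOX2 siRNA library. Per kilobase of merged exon the mean ratio went from 1.80 to 1.12, so the order of these transcripts per length did not turn, whereas per kilobase of the longest transcript it went from 1.35 to 0.838. In GENCODE 29 some transcripts of both genes start inside the segment printed above, or beyond it, but their exons do not overlap. The exons of COL4A2 share 81 and 14 bases with 2 antisense genes, COL4A2-AS1 and COL4A2-AS2, so its counts are uncertain to that extent.

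COL4A5 and COL4A6 are neighbours on the X chromosome that, like COL4A1 and COL4A2, are read away from each other, with 379 bases between their RefSeq start sites. They encode chains of a network found in some basement membranes, such as those of smooth muscle and skin. COL4A6 measured 53.0, 55.4 and 51.2 CPM in control and 72.6, 68.7 and 70.4 CPM after SOX2 siRNA (log2 fold change 0.41, SE 0.04, adjusted p = 1.96e-06, edgeR). COL4A5 measured 107, 115 and 109 CPM in control and 126, 121 and 125 CPM after SOX2 siRNA (log2 fold change 0.17, SE 0.04, adjusted p = 0.00287, edgeR). Both rose without overlap, COL4A6 by more, and the ratio of COL4A5 to COL4A6 counts went from 2.07 ± 0.0521 to 1.76 ± 0.0251. COL4A3 and COL4A4 encode chains of the kidney glomerular basement membrane. COL4A4 was near 1 CPM in both groups (adjusted p = 0.577, edgeR), and COL4A3 had 1 count in 1 library and none in the others, so their ratio was not computed.

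Endothelial markers moved in the direction of COL4A1 and COL4A2, and opposite to COL4A5 and COL4A6. All 4 of PECAM1, CDH5, KDR and TEK fell in the edgeR test, beside 13.4% of all tested genes. Their sum was 123 to 128 CPM in control and 92.8 to 96.9 CPM after SOX2 siRNA. The libraries come from the single line PA1, so these levels do not show that endothelial cells were present. PECAM1 fell from 64.2 ± 1.48 to 43.7 ± 0.545 CPM and CDH5 from 8.98 ± 0.133 to 5.48 ± 0.742 CPM. TEK fell least (adjusted p = 0.0455, edgeR), and its call was kept in only 6 of 16 alternatives; it was lost under DESeq2 (adjusted p = 0.128) and whenever a library was left out (0.0511 to 0.157). Leukocyte markers summed to less than 1 CPM in every library. The part of the endothelial markers in the type IV values was not tested.

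The other collagens comprised 27 genes, of which 18 were tested, 9 rose and 2 fell (50% and 11.1%, beside 14.8% and 13.4% of all tested genes), with a median log2 fold change of 0.22. The transmembrane gene COL13A1, whose protein sits at cell contacts such as the neuromuscular junction, had the highest fold change of all tested collagens. It measured 7.51, 8.98 and 7.44 CPM in control and 27.99, 25.9 and 25.6 CPM after SOX2 siRNA. All SOX2 siRNA libraries were well above the control libraries, by 3.32-fold on the means (log2 fold change 1.74, SE 0.08, adjusted p = 1.80e-11, edgeR). The gene lies at chr10:69801867-69964275 on the plus strand, directly downstream of the COL13A1 stretch printed above. COL25A1, a transmembrane collagen found in nerve tissue, measured 8.94, 11.2 and 11.2 CPM in control and 14.9, 12.6 and 11.7 CPM after SOX2 siRNA. The gap between the groups was small, and the call (log2 fold change 0.33, SE 0.11, adjusted p = 0.0335, edgeR) was lost in 7 of 16 alternatives, with adjusted p = 0.137 without control replicate 1, 0.0626 without control replicate 2, 0.113 without SOX2 siRNA replicate 1 and 0.0708 without SOX2 siRNA replicate 2. COL17A1, a collagen of the hemidesmosomes that hold epithelia to the basement membrane, was near 1 CPM and did not pass (adjusted p = 0.583, edgeR). COL23A1 had at most 11 counts.

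Type VI collagen forms beaded filaments around cells from COL6A1, COL6A2 and COL6A3 chains. COL6A1 measured 99.8, 91.2 and 100.4 CPM in control and 177, 157 and 149.7 CPM after SOX2 siRNA (log2 fold change 0.73, SE 0.06, adjusted p = 1.06e-05, edgeR). COL6A2 measured 74.7, 70.5 and 78.5 CPM in control and 128, 114 and 109 CPM after SOX2 siRNA (log2 fold change 0.65, SE 0.06, adjusted p = 5.87e-06, edgeR). These genes are neighbours on chromosome 21, 93.0 kb apart, and SOX2 siRNA replicate 1 was the highest library for both. COL6A3, on chromosome 2, went from 20.2 ± 0.715 to 22.2 ± 0.942 CPM, without overlap but short of the threshold (log2 fold change 0.14, adjusted p = 0.0986, edgeR). The ratio of COL6A3 to COL6A1 counts accordingly went from 0.208 ± 0.00689 to 0.139 ± 0.0139, while that of COL6A1 to COL6A2 went only from 1.30 ± 0.0288 to 1.38 ± 0.00399. COL6A5 and COL6A6 had at most 1 and 2 counts.

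Collagens that bind to fibril surfaces, known as FACITs, had 10 genes, of which 6 were tested, 3 rose and 1 fell, beside 14.8% and 13.4% of all tested genes. COL21A1, a FACIT of vessel walls, measured 4.85, 5.87 and 5.22 CPM in control and 10.6, 11.5 and 9.87 CPM after SOX2 siRNA, a 2.01-fold rise without overlap (log2 fold change 1.01, SE 0.10, adjusted p = 5.75e-07, edgeR). COL12A1, a FACIT of tendon and ligament, measured 9.45, 10.3 and 9.96 CPM in control and 5.63, 4.95 and 6.46 CPM after SOX2 siRNA. It fell in all 3 libraries to 57.3% of control (log2 fold change -0.80, SE 0.10, adjusted p = 1.32e-05, edgeR).

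Type IX collagen coats type II fibrils in cartilage and is built from COL9A1, COL9A2 and COL9A3 chains. COL9A2 measured 20.1, 17.8 and 18.9 CPM in control and 25.3, 25.2 and 25.8 CPM after SOX2 siRNA (log2 fold change 0.42, SE 0.06, adjusted p = 3.91e-05, edgeR). COL9A3 measured 46.1, 40.6 and 44.1 CPM in control and 62.9, 54.9 and 61.2 CPM after SOX2 siRNA (log2 fold change 0.45, SE 0.06, adjusted p = 2.51e-05, edgeR). Both rose by a like amount and their ratio overlapped between groups. COL9A1 was low, at 1.48 ± 0.272 and 1.27 ± 0.124 CPM, and did not pass (adjusted p = 0.506, edgeR). COL16A1 was near 4 CPM in both groups (adjusted p = 0.951, edgeR). COL14A1, COL19A1, COL20A1 and COL22A1 were not tested, with at most 6 counts in any library. COL9A3 shares exon sequence with TCFL5 on the opposite strand, and COL9A1 and COL16A1 also have short overlaps of that kind, so their counts are uncertain to that extent.

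COL7A1 encodes the anchoring fibrils that tie epithelia to the tissue below. It measured 213, 197 and 212 CPM in control and 261, 231 and 232 CPM after SOX2 siRNA, a small rise without overlap (log2 fold change 0.22, SE 0.05, adjusted p = 0.00355, edgeR). Of the epithelial markers, KRT8 and KRT18 rose while EPCAM and CDH1 did not pass, and the 4 together summed to 344 to 387 CPM in control and 476 to 512 CPM after SOX2 siRNA. Their part in the COL7A1 values was not tested.

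COL18A1, a basement membrane proteoglycan that gives rise to the fragment endostatin, was abundant in both groups. It measured 467, 439 and 475 CPM in control and 507, 481 and 508 CPM after SOX2 siRNA. The difference was small (log2 fold change 0.12, SE 0.04, adjusted p = 0.0283, edgeR). The call was lost with upper-quartile scaling (adjusted p = 0.0579) and without control replicate 2 (0.127), SOX2 siRNA replicate 1 (0.0714) or SOX2 siRNA replicate 3 (0.0929). The gene also shares 1401 exon bases with SLC19A1 on the opposite strand. COL15A1, its closest relative, had at most 5 counts.

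COL26A1, a collagen of testis and ovary, measured 49.0, 45.3 and 47.1 CPM in control and 37.9, 37.6 and 38.2 CPM after SOX2 siRNA. It fell without overlap (log2 fold change -0.32, SE 0.05, adjusted p = 6.26e-05, edgeR). COL28A1 was near or below 1 CPM, and its log2 fold change of -0.71 (SE 0.30) did not pass (adjusted p = 0.0835, edgeR), although the libraries did not overlap. The short-chain genes COL8A1 and COL8A2, which form the hexagonal network under the corneal endothelium, were below 1 CPM in every library and did not pass (adjusted p = 0.227 and 0.653, edgeR). COL10A1, the collagen of hypertrophic cartilage, had at most 2 counts.

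The 13 genes that were not tested reached at most 11 counts in any library, and 5 of them (COL4A3, COL6A5, COL6A6, COL10A1 and COL20A1) had 3 counts or fewer everywhere. In 12 of the 13 the libraries of both groups overlapped. In COL24A1 they did not, with 8, 9 and 8 counts in control and 3, 6 and 2 counts after SOX2 siRNA. With so few counts none of these genes was tested.

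Summed over the family, collagen genes took 0.367 ± 0.0108% of all counts in control and 0.417 ± 0.0168% after SOX2 siRNA. Within the family the class shares turned. Fibrillar genes held 27.6%, 27.1% and 27.5% of collagen counts in control and 44.4%, 44.3% and 43.6% after SOX2 siRNA. Basement membrane genes held 44.3%, 45.8% and 44.98% in control and 25.8%, 26.6% and 26.99% after SOX2 siRNA. The share of the other genes moved less, from 27.5 ± 0.501% to 29.4 ± 0.366%. Basement membrane genes were thus the leading class by counts in each control library and fibrillar genes in each SOX2 siRNA library. COL4A1 alone went from 23.5 ± 0.482% to 10.04 ± 0.353% of collagen counts and COL2A1 from 5.31 ± 0.151% to 13.1 ± 0.373%. COL4A1 and COL4A2 together went from 40.6 ± 0.564% to 21.8 ± 0.509%. The share of COL4A5 was 3.00 ± 0.180% and 2.97 ± 0.0684%, and that of COL4A6 went from 1.45 ± 0.0988% to 1.69 ± 0.0163%. The lower share of the basement membrane class thus lay in COL4A1 and COL4A2. Shares within a total are bound together, so that a rise of one class lowers the share of the others.

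**Figure D3:**
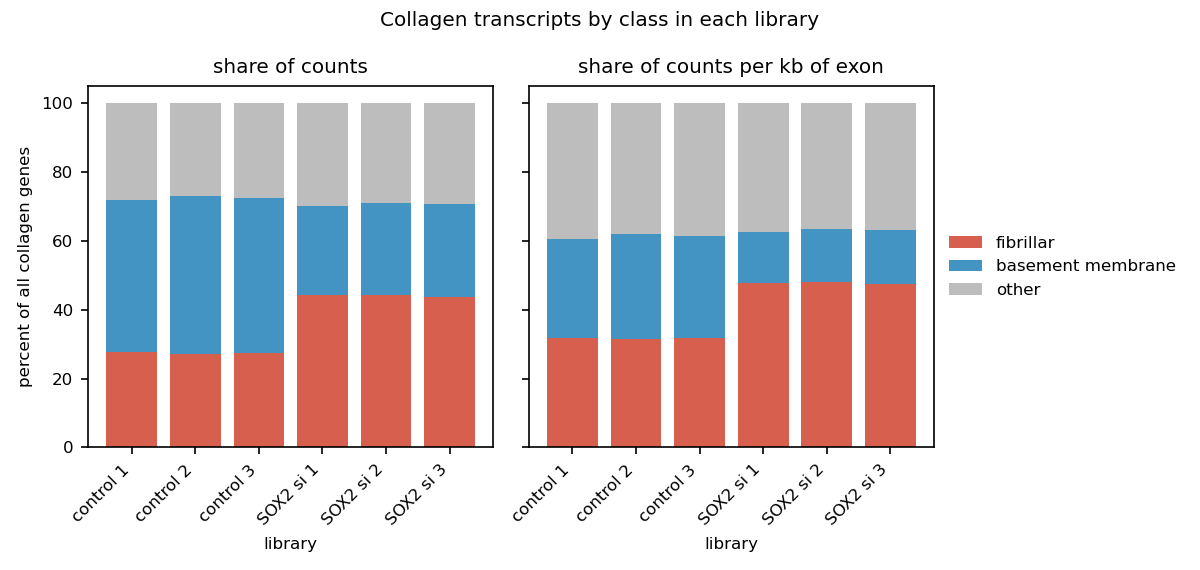
Share of each class among all collagen counts (left) and among counts per kilobase of merged exon (right) in each library, in percent, stacked to 100. In the left panel the fibrillar share goes from 27.4% to 44.1% and the basement membrane share from 45.04% to 26.5%; in the right panel they go from 31.8% to 47.7% and from 29.5% to 15.4%.

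The size of a class depends on transcript length, since long transcripts give more counts. Per kilobase of merged exon, fibrillar genes held 31.8 ± 0.141% in control and 47.7 ± 0.270% after SOX2 siRNA, basement membrane genes 29.5 ± 0.701% and 15.4 ± 0.367%, and other genes 38.7 ± 0.588% and 36.9 ± 0.440%. On that scale the other genes, not the basement membrane genes, led in control. Per kilobase of the longest transcript the fibrillar share went from 25.6% to 41.4%, the basement membrane share from 42.8% to 24.4% and the share of the other genes from 31.6% to 34.1%. On all 3 scales the fibrillar share was higher and the basement membrane share lower after SOX2 siRNA, and the share of the other genes was higher on 2 scales and lower on 1.

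The order of the genes by CPM per kilobase of merged exon also differed. In control the highest levels were those of COL4A1 (58.5 ± 1.66), COL18A1 (54.0 ± 2.21), COL4A2 (32.5 ± 1.01), COL2A1 (29.3 ± 0.583), COL1A1 (28.7 ± 2.48) and COL5A2 (22.01 ± 0.441). COL2A1 and COL1A1 did not differ beyond their spread in that order. After SOX2 siRNA the order was COL2A1 (81.9 ± 0.253), COL18A1 (58.5 ± 1.79), COL5A2 (56.1 ± 0.536), COL1A1 (36.4 ± 2.67), COL6A1 (30.2 ± 2.63), COL4A1 (28.4 ± 0.111) and COL4A2 (25.5 ± 0.732). There COL6A1 and COL4A1 did not differ beyond their spread. COL4A1 went from rank 1 to rank 6 on this scale and from rank 1 to rank 4 per kilobase of the longest transcript, and COL2A1 was first after SOX2 siRNA on both.

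Ratios between chains that can assemble in the same molecule were compared for 10 of the 11 pairs listed. In 8 pairs the ratios of the control libraries did not overlap those of the SOX2 siRNA libraries, which gave an exact two-sided permutation p of 0.1, the smallest that 3 against 3 libraries allow (0.125 after Benjamini-Hochberg adjustment over the 10 pairs). None of the pairs could therefore pass a threshold of 0.05. Of all tested single genes, 41.8% did not overlap, and the share for ratios of other gene pairs was not computed. Some pairs share a chain, COL6A1 or COL9A2, so they are not separate results. COL1A1 to COL1A2 went from 15.8 ± 1.42 to 21.8 ± 1.02, COL11A1 to COL11A2 from 58.0 ± 2.07 to 79.4 ± 13.3, and COL9A1 to COL9A2 from 0.0790 ± 0.0192 to 0.0499 ± 0.00478. The chain named first was thus the more abundant in the first 2 of these pairs and the less abundant in the last. COL9A3 to COL9A2 was 2.30 ± 0.0262 and 2.35 ± 0.154 (exact permutation p = 0.7), and COL8A1 to COL8A2, from few counts, was 2.80 ± 1.10 and 1.45 ± 0.506 (exact permutation p = 0.2). These last pairs overlapped between the groups.

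**Figure D4:**
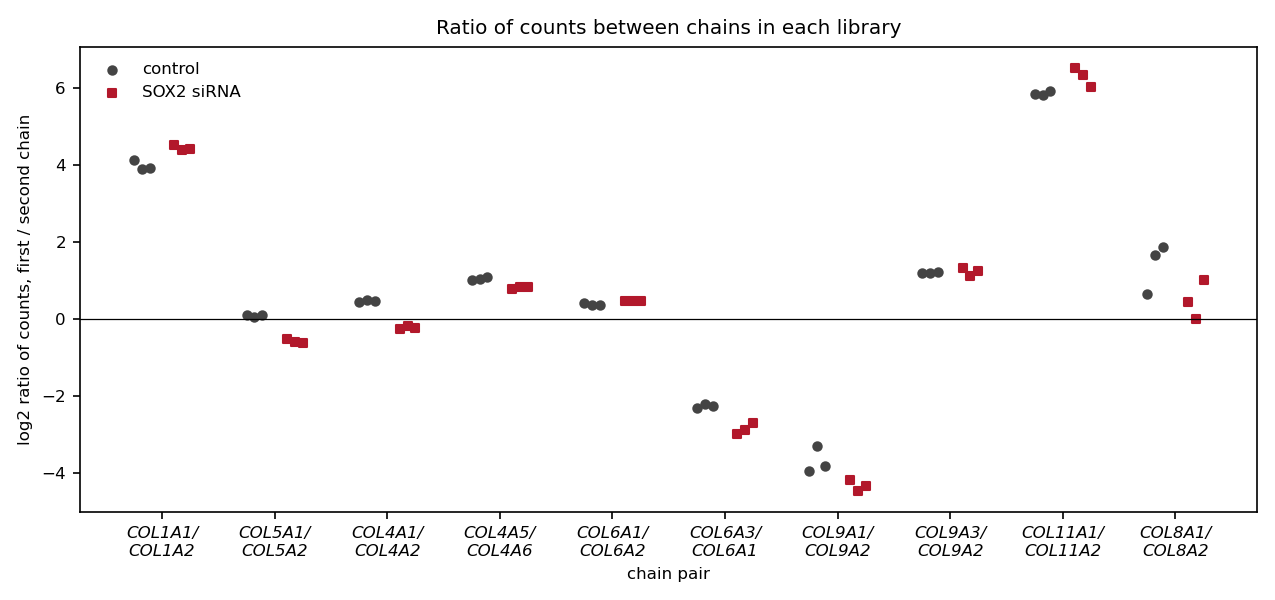
Log2 ratio of counts between 2 chains of a collagen in each library, for 10 pairs, with control libraries as grey circles and SOX2 siRNA libraries as red squares; 0 means equal counts. The COL4A1/COL4A2 points lie above 0 in control (ratios of 1.35 to 1.40) and below 0 after SOX2 siRNA (0.831 to 0.884), and the groups overlap only for COL9A3/COL9A2 and COL8A1/COL8A2.

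Short motifs were looked for on both strands in the 250 bases upstream of the RefSeq start sites. This was done for the 32 collagen genes with an entry, and 34943 windows of the same length served for comparison. A gene was counted if any of its windows held the motif, whereas the comparison is a share of single windows. A gene with several start sites has more chances of a match, so counts and shares are not on the same footing. ACAATG and ACAAAG, sequences that SOX proteins can bind, were found in 1 and 5 of the 32 genes, beside 9.3% and 13.7% of all windows. Among the 10 genes that rose and had an entry, ACAAAG was present in COL21A1 and COL9A2 and ACAATG in none, and among the 4 that fell neither was present. GGGCGG was present in 21 of the 32 genes, beside 42.5% of all windows, in 7 of the 10 that rose and in 3 of the 4 that fell (COL4A1, COL4A2 and COL12A1). CCAAT was present in 11 genes, beside 32.0% of all windows, among them all 4 of COL4A1, COL4A2, COL4A5 and COL4A6. TATAAA was present in 7 genes, beside 10.8% of all windows, and 4 of them rose: COL13A1, COL18A1, COL6A2 and COL7A1. Among the 10 tested but uncalled genes with an entry, GGGCGG and CCAAT were each present in 5. ACAAAG and TATAAA were each present in 1 of these uncalled genes and ACAATG in 0. A match is only a match of letters in this window, and the windows of COL4A1 and COL4A2 share bases, as do those of COL4A5 and COL4A6, so that their matches are not separate.

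Genes that make collagen in the cell were examined as a list of 27, of which 26 were tested. Of these 11 rose and 2 fell, 50% beside 28.2% of all tested genes, with a median log2 fold change of 0.13. The median absolute log2 fold change was 0.171, beside 0.146 over all tested genes. PLOD3, a lysyl hydroxylase that also adds sugars to collagen, rose from 28.9 ± 1.56 to 38.2 ± 1.26 CPM (log2 fold change 0.40, adjusted p = 2.03e-05, edgeR). FKBP10 and CRTAP, which act in folding and prolyl hydroxylation of the chains, rose by 0.24 and 0.18 on the log2 scale. MIA2, which serves in export from the endoplasmic reticulum, rose by 0.31, and the chaperone HSP90B1 by 0.17. COLGALT2, a galactosyltransferase of collagen, fell from 24.2 ± 0.400 to 16.03 ± 0.922 CPM (log2 fold change -0.60, adjusted p = 9.92e-07, edgeR). SERPINH1, the collagen chaperone HSP47, measured 321 ± 11.99 and 342 ± 10.9 CPM and did not pass (adjusted p = 0.0912, edgeR), although the libraries did not overlap.

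The prolyl hydroxylase subunits P4HA1 and P4HA2 varied widely after SOX2 siRNA. P4HA1 measured 133, 136 and 155 CPM in control and 188, 132 and 93.2 CPM after SOX2 siRNA, and P4HA2 measured 20.1, 20.4 and 24.5 CPM and then 27.96, 17.8 and 10.9 CPM. In both genes the SOX2 siRNA libraries lay on either side of the control libraries, with replicate 1 highest. SOX2 siRNA replicate 1 was also the highest library for PLOD2 (129, 97.4 and 84.4 CPM in replicates 1, 2 and 3) and LOX (14.6, 5.97 and 2.98 CPM). These 4 genes were named after their values were seen. The same library was highest for COL11A1, COL5A1, COL6A1, COL6A2 and COL25A1, among others. Leaving out a gene's highest SOX2 siRNA library lowers its log2 fold change, so smaller values for these 5 were fixed by their choice. Without SOX2 siRNA replicate 1 they were 0.65 for COL5A1, 0.66 for COL6A1 and 0.58 for COL6A2, which remained called. They were 0.22 for COL25A1, which was no longer called, and 0.35 for COL11A1, which passed.

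Genes that act on collagen outside the cell numbered 19, of which 14 were tested and 6 rose (42.9%, beside 28.2% called in either direction). None fell, beside 13.4% of all tested genes, and with 14 genes a count of 0 is not far from that share. The median log2 fold change was 0.35. DESeq2 and limma-voom also called 0 lower. By an unadjusted p 1 gene, ADAMTS3, was lower, and it passed as lower in 1 of 16 alternative fits. BGN, a small proteoglycan that binds collagen fibrils, measured 8.12, 6.87 and 7.75 CPM in control and 38.6, 37.9 and 38.7 CPM after SOX2 siRNA. The SOX2 siRNA libraries were close to each other and far above control (log2 fold change 2.33, SE 0.07, adjusted p = 3.76e-14, edgeR). LOXL4, a lysyl oxidase that cross-links collagen, measured 1.36, 1.24 and 1.18 CPM in control and 5.47, 5.35 and 4.79 CPM after SOX2 siRNA (log2 fold change 2.04, SE 0.15, adjusted p = 1.52e-08, edgeR). BMP1, a protease that removes the C-terminal propeptide of fibrillar collagens, rose by 0.46 on the log2 scale, and PCOLCE and PCOLCE2, which enhance it, by 0.39 and 0.19. The PCOLCE2 call was lost under DESeq2 (adjusted p = 0.0508) and without SOX2 siRNA replicate 2 (0.0768). LOXL1, another lysyl oxidase, rose by 0.52. The N-terminal propeptidases ADAMTS3 and ADAMTS14 did not pass (adjusted p = 0.0894 and 0.209, edgeR), and ADAMTS2 had at most 7 counts.

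Collagen receptors numbered 14, of which 12 were tested, 4 rose and 1 fell (41.7%, beside 28.2%), with a median log2 fold change of 0.23. ITGB1, the beta chain of the collagen-binding integrins, rose from 729 ± 22.6 to 1044 ± 18.3 CPM (log2 fold change 0.52, adjusted p = 3.52e-09, edgeR). Of the alpha chains that pair with it, ITGA2 fell from 6.92 ± 0.233 to 4.91 ± 0.189 CPM (log2 fold change -0.50, adjusted p = 0.00122, edgeR), and ITGA11, at 5 to 19 counts per library, was called higher (log2 fold change 1.13, adjusted p = 0.0270, edgeR). The ITGA11 call was kept in only 9 of 15 alternatives, and was lost under DESeq2 (adjusted p = 0.187) and without control replicate 2 (0.0945) or 3 (0.104) or SOX2 siRNA replicate 2 (0.114) or 3 (0.0888). ITGA1 measured 64.7 ± 4.43 and 69.3 ± 1.65 CPM and did not pass (adjusted p = 0.146, edgeR). ADGRG6, an adhesion receptor that binds type IV collagen, rose from 19.2 ± 0.675 to 36.8 ± 1.19 CPM (log2 fold change 0.94, adjusted p = 6.17e-10, edgeR). MRC2, which takes up collagen for degradation, rose by 0.33 on the log2 scale. The receptor kinases DDR1 and DDR2 did not pass (adjusted p = 0.639 and 0.465, edgeR).

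**Figure D5:**
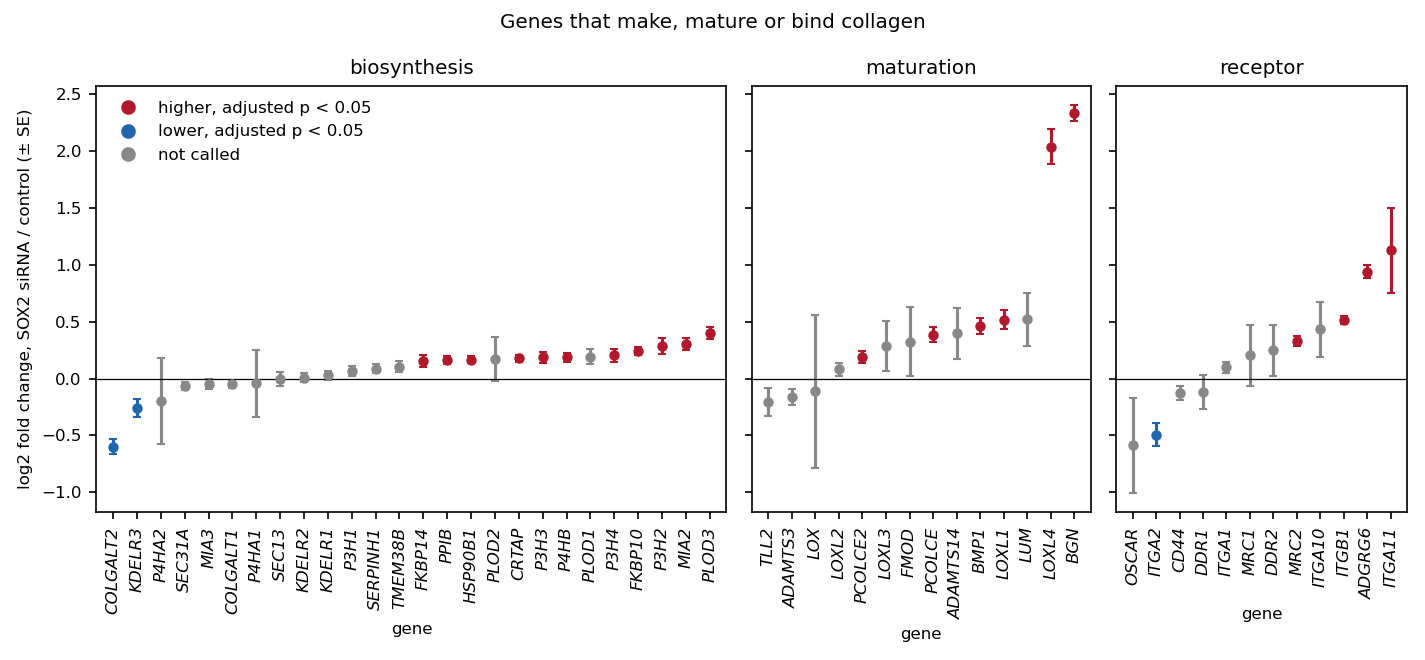
Log2 fold change (SOX2 siRNA over control) with its standard error for the tested genes of collagen biosynthesis, maturation outside the cell, and collagen binding; red points rose, blue points fell and grey points did not pass an adjusted p of 0.05. BGN (2.33) and LOXL4 (2.04) are the highest points and COLGALT2 (-0.60) is the lowest called one.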

How the data were processed

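The authors deposited raw counts per gene symbol, 1 column per library; the values are whole numbers with unequal totals. The submitters' processing notes name bcl2fastq 2.20.0, STAR 2.7.3a, Salmon 0.14.1, DESeq2 1.28.1 and the build GRCh38.p13, without saying what each was used for. The program that made the counts, its use of strand and its annotation are not given in the sources used here. Libraries were mapped to columns by their descriptions and grouped by the treatment label.

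Genes were kept by filterByExpr (minimum count 10), scaled by TMM (factors 0.991 to 1.01) and tested with edgeR 4.0.16's quasi-likelihood test (robust, R 4.3.3) over all 17592 genes passing, with Benjamini-Hochberg adjustment and a threshold of 0.05. CPM use the scaled totals. Standard errors come from the same model. Python 3.11.15 served for ratios, shares and exact two-sided permutation tests. Lengths and coordinates are from GENCODE 29, and start sites and sequences from RefSeq on GRCh38.p14. Alternatives used DESeq2 1.42.0, limma 3.58.1, other scalings and filters, glmTreat, each library left out in turn and the replicate number as a block. The procedure was tested on simulated data.

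The members and gene lists were chosen with earlier results of these data known. Named are SOX2, every collagen gene, and up to 6 called genes of each list by smallest p; further genes were named after their values were seen, among them uncalled list members and markers. No library was left out, and replicates differed by more than sampling noise (chi-square per degree of freedom 2.87 to 6.43).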

Additional observations from a re-analysis of the deposited data

How the results depend on the processing

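Over 16 alternative fits, the called collagen genes gave 304 values, of which 278 kept the call and the sign, 26 lost the call and none reversed. Of the 26, 14 were lost under glmTreat, which tests against a 1.5-fold change, and the other 12 were those of COL1A1 (2), COL18A1 (4) and COL25A1 (6). The uncalled collagen genes gave 191 values, of which 5 became calls, all of COL11A1. Against a 1.5-fold change, 497 of all tested genes were called, 265 higher and 232 lower. Of the collagen genes 4 were then higher and 1 lower: 2 fibrillar and 2 other genes higher, 1 basement membrane gene lower, and 0 basement membrane genes higher and 0 other genes lower. The biosynthesis list then had 0 calls, the maturation list 2 and the receptor list 1. The test is stricter by its own construction.

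The log2 difference of the COL9A3 to COL9A2 ratio was 0.0250 and reversed to -0.0174 without SOX2 siRNA replicate 1; over the libraries left out in turn it ranged from -0.0174 to 0.0769, and the cause was not tested.

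Same-numbered libraries of the groups did not deviate together (correlations of 0.0868, -0.0377 and -0.0311), so the numbers were not taken as pairs. A fit that blocks on replicate number called 5177 of all tested genes (2720 higher, 2457 lower) and, of the collagen genes, 14 higher and 4 lower. COL25A1 and TEK lost their calls (adjusted p = 0.112 and 0.0512, edgeR). SERPINH1 and PLOD1 of the biosynthesis list and CD44 of the receptor list passed (adjusted p = 0.0388, 0.00843 and 0.0364, edgeR). With 3 libraries a group, depth limits the 13 untested genes and those near 1 CPM, for which only large differences could be seen.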
